A study of Mus musculus with 6 samples.

Results

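The genes described here are the potassium channel genes of the stria vascularis other than its best known ones: all genes whose single symbol in the platform annotation begins with Kcn, without the inward rectifiers (Kcnj), the Kcne subunits, Kcnq1 and the Kcnq1 antisense transcript. The rule used symbols only and no measured value. It found 62 of the 84 Kcn genes on the array, out of 18193 genes in all, and 1 probe set stands for each gene, that of the highest mean over the 6 arrays. All 62 were measured and none was dropped by a filter on level.

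The samples were 3 pools of Errb mutant stria vascularis and 3 pools of wild-type stria vascularis from mice, each hybridised to 1 Affymetrix array. Errb, also written Nr3b2 in the series title, is the gene now named Esrrb, whose product, estrogen-related receptor beta, is an orphan nuclear receptor. The mutants came from a conditional knock-out. No source used here names the Cre driver, the strain or the cells in which the allele was deleted. Each pool held material from 10 mice, described as inner ear in the design text and as stria vascularis in the sample labels. Wild-type replicate 1 is labelled as 3 to 5 days after birth, and no other label gives an age. The arrays were compared in pairs of the same replicate number, as the log2 value of the mutant minus that of wild type, where a difference of 1 is a 2-fold difference. Values with ± are the mean and SD of 3 pairs (n = 3), and adjusted p-values are from limma with the replicate number as a block. In pooled tissue, fewer cells of a type and less RNA per cell cannot be told apart.

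The stria vascularis secretes potassium into endolymph. Its marginal cells take potassium up from the intrastrial space and release it through an apical channel made of Kcnq1 and Kcne1, and its intermediate cells supply potassium through the inward rectifier Kcnj10. The remaining potassium channels fall into a few families. Voltage-gated alpha subunits form tetramers that open on depolarisation, some of them only together with partner subunits, and auxiliary subunits bind them inside the cell. Calcium-activated channels open as calcium rises, and 2-pore-domain channels carry background currents that set the resting potential. In the ear many of these genes are known from hair cells and spiral ganglion neurons.

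The tissue and the arrays were checked first. Over the 9 marginal cell markers the mean signal per array was 7.42 to 8.37 (log2) in mutant and 8.81 to 9.79 in wild type, and over the 9 intermediate cell markers it was 7.92 to 8.78 in mutant and 8.45 to 9.53 in wild type. The 8 measured hair cell markers averaged 5.42 to 6.29 in mutant and 5.45 to 6.23 in wild type. The best expressed probe set of Esrrb read 9.76, 10.28 and 9.98 in mutant replicates 1 to 3, against 9.68, 10.60 and 9.96 in wild type. No source used here says whether that probe set lies in the deleted part, so it checks nothing about the genotype. As a sign of RNA quality, the 3' minus 5' difference of the Gapdh control probe sets was 2.57, 0.16 and 0.51 in mutant replicates 1 to 3, against 2.28, 0.21 and -0.04 in wild type. That of Actb was 1.35, 0.47 and 0.49 in mutant, against 1.01, 0.52 and 0.18 in wild type. Both arrays of pair 1 were high, and the mutant lay above wild type in pairs 1 and 3. On the arrays of pair 1, 27 of the 62 genes had exactly the same value in both genotypes, against 2 each in pairs 2 and 3. That is 43.5% of these genes, against 32.1% of all genes.

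None of the 62 genes passed an adjusted p of 0.05 in the paired fit (adjusted p = 0.246 for the smallest), where 0.148% of all genes passed, 0.0165% higher and 0.132% lower in the mutant. None passed in the fit without the pairs either, where 0.00550% of all genes did and each of the 62 had an adjusted p of 1. At an unadjusted p under 0.05 the paired fit held 7 of the 62 (11.3%), 4 higher and 3 lower in the mutant, against 7.35% of all genes, and the unpaired fit held 0. With 3 pairs an exact sign-flip permutation test cannot go below p = 0.25 for a single gene. The mean differences ran from -0.42 for Kcnn4 to 0.50 for Kcnq3, with 32 above 0 (51.6%, against 51.3% of all genes) and 30 below. Their median was 0.0059, beside 0.0036 over all genes, and 54 of the 62 differed by less than 0.2. In pairs 1 to 3 the median over the 62 was 0, -0.02 and -0.06.

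In all 3 pairs, 5 genes were higher (8.06%, against 12.9% of all genes) and 6 were lower (9.68%, against 9.03%). A mean difference above 0.5 was found for 1 gene, Kcnq3 (1.61%, against 0.605% of all genes), and below -0.5 for none (1.00% of all genes). The genotypes did not overlap for 2 genes, Kcnn4 and Kcnq3 (3.23%, against 1.07%). Each 95% interval of the paired fit, taken gene by gene without adjustment, lay within 1 of 0, from a lowest end of -0.59 for Kcnn4 to a highest end of 0.87 for Kcna1. For 54 of the 62 the interval lay within 0.5 of 0.

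**Figure D1:**
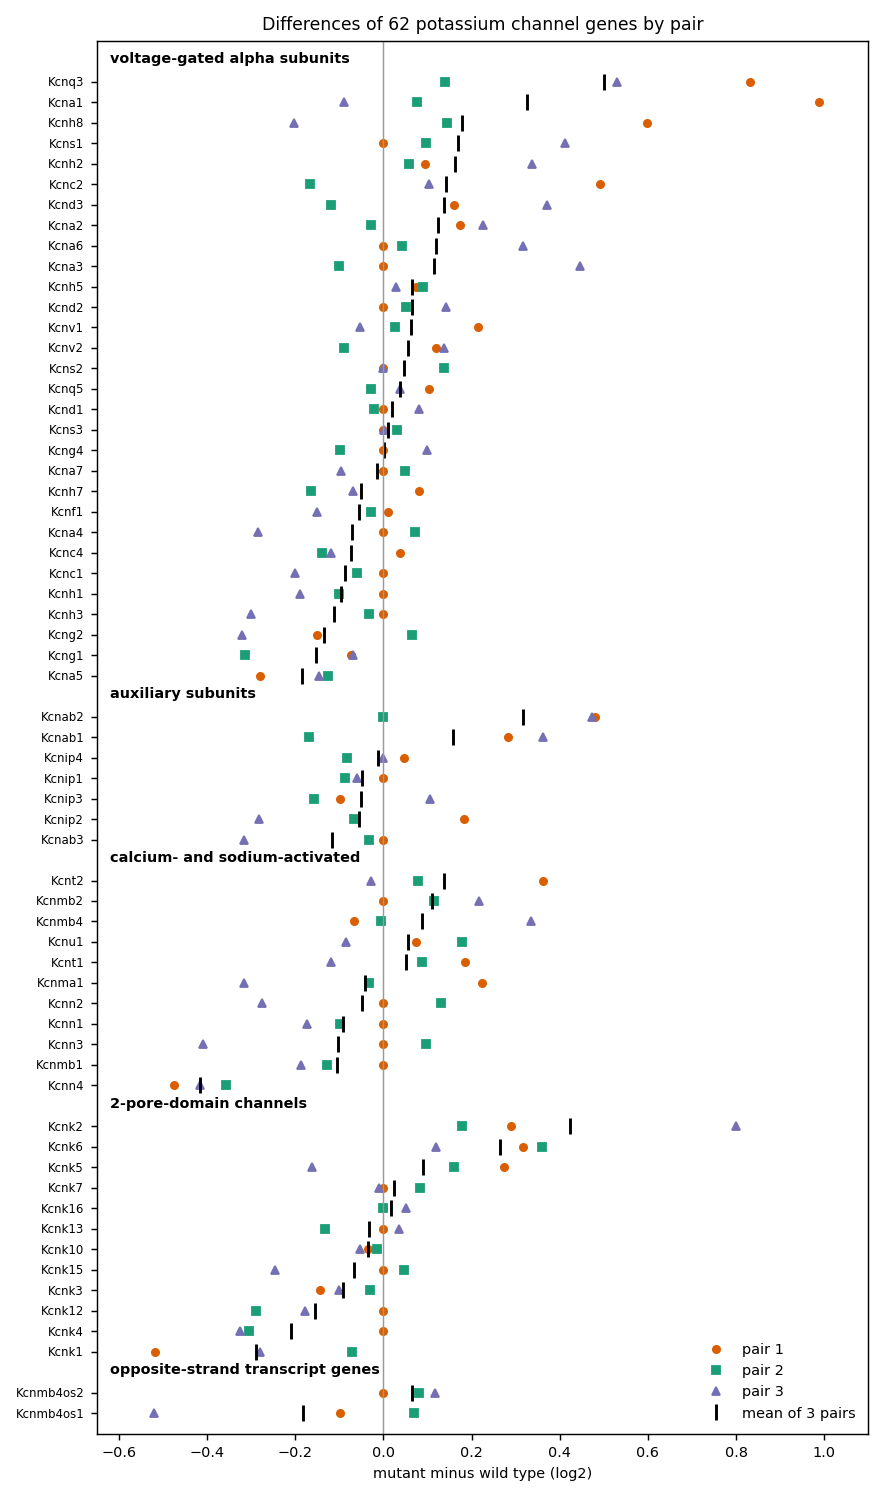
Mutant minus wild type (log2, x axis) for each of the 62 genes (rows, by family), with a point for each of the 3 pairs and a bar for their mean. Most means lie within 0.2 of 0, many points of pair 1 lie exactly at 0, and Kcnq3, Kcnk2 and Kcnn4 lie furthest out.

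Signal limits what these small differences show. As a yardstick for probe sets near background, 39 olfactory receptor genes were used, which are not expected in this tissue. Their 95th percentile averaged 6.56 (log2) over the 6 arrays. A mean above that level was found for 19 of the 62 genes and a mean below it for 43. Some of the 19 were not above the yardstick of the same array throughout. Kcna1 was above it on 2 of the 6 arrays, Kcnmb2 on 3, and Kcng2, Kcnip3, Kcnh2 and Kcnq3 on 5. Probe sets differ in affinity, so this split is no order of abundance. For the 43 a small difference is no evidence of equal transcript levels. Their differences ran from -0.21 to 0.32, with 21 of them exactly equal in pair 1, and those of the 19 from -0.42 to 0.50, with 6 equal in pair 1. In the same fit and by the same choice of probe set, both genes of the apical channel passed as lower. Kcnq1 differed by -1.67 ± 0.17 (adjusted p = 0.0193) with an interval of -1.89 to -1.45. The measured difference of Kcne1 was -4.32 ± 0.30 (adjusted p = 0.00373), but its mutant values of 5.51, 5.95 and 4.70 lay below the yardstick of 6.08, 7.05 and 6.43 on the same arrays. Set against that yardstick, Kcne1 was at least 9.08-fold lower in the mutant. In fits of 2 pairs the differences stayed close in size while most calls were lost. Without pairs 1 to 3 in turn Kcnq1 differed by -1.61, -1.63 and -1.76, with an adjusted p of 0.0671, 0.879 and 0.423. Kcne1 still passed without pair 1, with a difference of -4.21 (adjusted p = 0.0230). Kcne1 differed by -4.49 without pair 2 (adjusted p = 0.789) and by -4.25 without pair 3 (adjusted p = 0.453). Kcnj10 differed by -0.73 ± 0.28 without passing (adjusted p = 0.240). The interval of Kcnq1 lay below the lowest interval end of all 62 genes; the difference between genes was not itself tested.

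**Figure D2:**
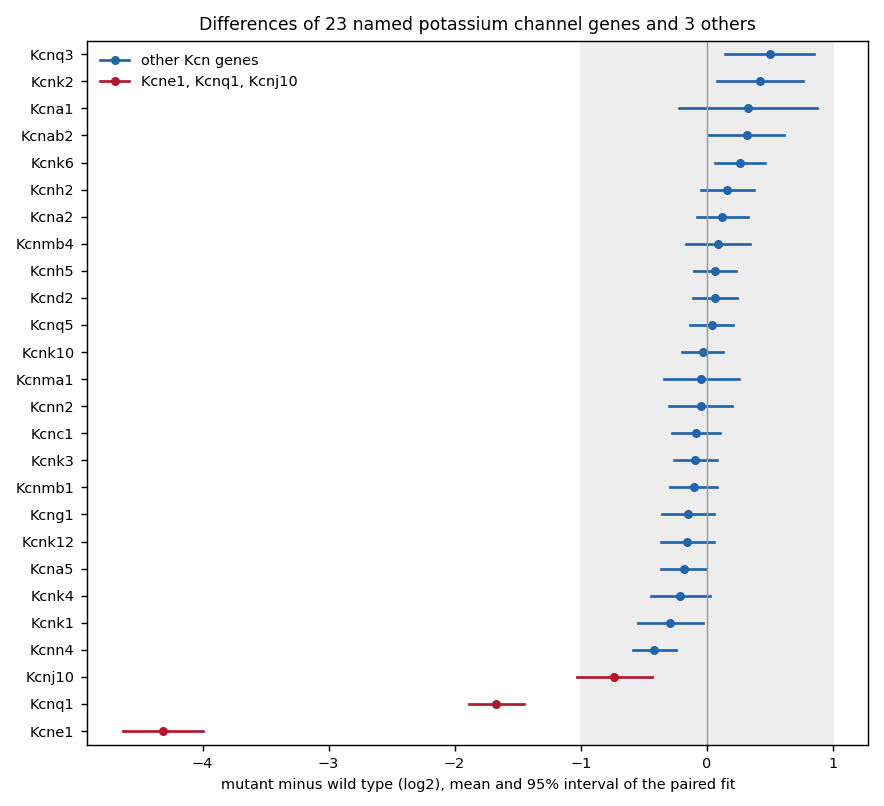
Mean mutant minus wild type (log2, x axis) with its 95% interval in the paired fit for the 23 named genes of the 62 (blue) and for Kcne1, Kcnq1 and Kcnj10 (red). The grey band marks differences within 1 of 0, which hold all blue intervals. Those of Kcne1 and Kcnq1 lie wholly below it and that of Kcnj10 reaches -1.03, with the mutant signal of Kcne1 below the olfactory receptor yardstick.

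The promoters of 4 genes are shown for their letters and their place among the differences. Kcnn4 and Kcnk1 had the lowest means of the 62. Of the 46 of the 62 genes with a promoter in the RefSeq table (GRCm38.p6), only Kcnf1 and Kcnh1 hold AAGGTCA there on either strand. A promoter was taken as 250 bases before to 50 after a start. AAGGTCA is the core of the estrogen-related receptor response element. The core is in capitals, and TGACCTT is the same core read on the other strand.
Kcnn4, chr7:24370013-24370312, + strand: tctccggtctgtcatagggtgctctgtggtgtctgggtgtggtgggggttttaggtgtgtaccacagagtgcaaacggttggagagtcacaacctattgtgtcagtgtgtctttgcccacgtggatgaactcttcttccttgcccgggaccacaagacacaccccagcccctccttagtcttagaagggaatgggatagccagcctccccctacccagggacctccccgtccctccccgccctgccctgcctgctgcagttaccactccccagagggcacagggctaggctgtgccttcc
Kcnk1, chr8:125994852-125995151, + strand: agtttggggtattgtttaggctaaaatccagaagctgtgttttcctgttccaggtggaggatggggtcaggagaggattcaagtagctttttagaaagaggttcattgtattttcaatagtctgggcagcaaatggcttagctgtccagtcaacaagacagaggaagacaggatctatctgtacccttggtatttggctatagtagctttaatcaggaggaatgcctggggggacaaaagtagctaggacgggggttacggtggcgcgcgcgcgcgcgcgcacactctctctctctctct
Kcnf1, chr12:17176839-17177138, - strand: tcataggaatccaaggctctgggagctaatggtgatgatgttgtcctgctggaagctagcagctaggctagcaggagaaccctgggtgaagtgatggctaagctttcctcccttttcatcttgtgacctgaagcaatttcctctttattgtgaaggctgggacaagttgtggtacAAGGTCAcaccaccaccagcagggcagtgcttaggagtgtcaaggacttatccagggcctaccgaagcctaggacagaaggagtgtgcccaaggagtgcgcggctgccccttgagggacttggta
Kcnh1, chr1:192190527-192190826, + strand: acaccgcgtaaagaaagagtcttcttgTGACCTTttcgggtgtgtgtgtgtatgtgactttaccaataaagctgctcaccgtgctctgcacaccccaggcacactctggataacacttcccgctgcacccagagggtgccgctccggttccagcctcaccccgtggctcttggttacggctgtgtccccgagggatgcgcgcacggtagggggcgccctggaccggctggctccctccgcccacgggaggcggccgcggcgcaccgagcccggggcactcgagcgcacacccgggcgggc

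The table held 65 promoters of 46 of the 62 genes. Kcnq3 and Kcna1 were among the genes with no promoter there and were not searched. AAGGTCA was present in 2 of the 65 (3.08%), against 4.72% of all 32851 promoters, and the longer TCAAGGTCA, which contains it, in 0 of 65, against 0.423%. In Kcnf1 the core began 75 bases before the start and in Kcnh1 223 bases before it, on the other strand. Kcnf1 differed by -0.06 ± 0.08 and Kcnh1 by -0.10 ± 0.09. The Kcnn4 and Kcnk1 windows do not hold these letters, which says nothing of binding elsewhere. The Kcnn4 window was 59.7% G and C and the Kcnk1 window 49.0%, beside a median of 61.0% over the 65 promoters.

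Among the 11 genes grouped by symbol as calcium- and sodium-activated channels (Kcnma, Kcnmb, Kcnn, Kcnt and Kcnu), Kcnn4 stood lowest. The grouping was by symbol alone and not by what opens each channel. Kcnn4 encodes the intermediate-conductance calcium-activated channel of red cells, lymphocytes and secretory epithelia. Its signal was 7.93, 8.14 and 7.73 in mutant replicates 1 to 3, against 8.40, 8.50 and 8.15 in wild type. Every mutant array lay below every wild-type array. The difference was -0.42 ± 0.06, a fold of 1.33, with an interval of -0.59 to -0.24, and it did not pass (adjusted p = 0.246). A second, dimmer probe set of Kcnn4 lay at -0.11, -0.20 and -0.57 in pairs 1 to 3, a mean of -0.29. Both probe sets had the same sign. Marginal cell markers were lower too, with a list median of -1.22. Of these 9 markers 4 passed as lower, Kcne1 and Kcnq1 among them, against 0.132% of all genes. In the same list Esrrb and Shroom3 differed by only -0.07 and -0.06. The 9 intermediate cell markers had a median of -0.71, with 7 lower in all 3 pairs (9.03% of all genes). Lower markers were not confined to these lists. The median was -0.24 over 6 basal cell markers and -0.17 over 9 endothelium markers. In all 3 pairs 3 of the 6 and 3 of the 9 were lower (9.03% of all genes), and 0 of either list were higher (12.9%). The part of any of these lists in the difference of Kcnn4 was not tested.

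Kcnma1, which encodes the pore of the large-conductance calcium-activated (BK) channel known from hair cells, had no common direction. It read 6.39, 7.44 and 6.82 in mutant, against 6.16, 7.48 and 7.14 in wild type, a difference of -0.04 ± 0.27. The mutant was above wild type in pair 1 and below it in pairs 2 and 3. Its other 4 probe sets differed by -0.10 to 0.09. The beta subunit genes Kcnmb1, known from smooth muscle (-0.10 ± 0.10), Kcnmb2 (0.11 ± 0.11) and Kcnmb4, known from neurons (0.09 ± 0.22), did not pass. Kcnn2, the small-conductance channel at efferent synapses on outer hair cells, differed by -0.05 ± 0.21 and its relatives Kcnn1 and Kcnn3 by -0.09 and -0.10. The sodium-activated channel genes Kcnt1 and Kcnt2 differed by 0.05 and 0.14. The median of the 11 was -0.04, with 0 higher and 1 lower in all 3 pairs (12.9% and 9.03% of all genes).

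The 12 genes of 2-pore-domain channels included both directions, with a median of -0.03. In all 3 pairs 2 were higher and 3 lower, against 12.9% and 9.03% of all genes. Kcnk1 (TWIK-1), a weakly conducting background channel, read 8.39, 9.67 and 8.87 in mutant, against 8.91, 9.75 and 9.15 in wild type. It was lower in each mutant of a pair, by -0.52, -0.07 and -0.28, though the genotypes overlapped across pairs. The difference was -0.29 ± 0.22 (adjusted p = 0.653). The second probe set of Kcnk1 differed by -0.54, lower in all 3 pairs (-0.64, -0.14 and -0.83; adjusted p = 0.486), so that both pointed the same way without passing. The lower marginal, intermediate and basal cell and endothelium markers stand beside Kcnk1 as they do beside Kcnn4. Their part was not tested there either. Kcnk6 (TWIK-2), a close relative of Kcnk1, lay on the other side. It read 7.77, 7.82 and 7.36 in mutant, against 7.46, 7.46 and 7.24 in wild type. Its difference was 0.26 ± 0.13 (adjusted p = 0.555).

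Kcnk2 (TREK-1), a channel gated by stretch and lipids, read 7.49, 7.71 and 7.65 in mutant, against 7.20, 7.53 and 6.85 in wild type. The low value was that of wild-type replicate 3, and pair 3 held most of the difference (0.29, 0.18 and 0.80). The mean was 0.42 ± 0.33, a fold of 1.34 (adjusted p = 0.596). Without pair 3 the mean of Kcnk2 was 0.23. Kcnk4 (TRAAK), a relative of Kcnk2, was equal in pair 1 and differed by -0.31 and -0.33 in pairs 2 and 3. Its mean of -0.21 ± 0.18 did not pass (adjusted p = 0.724), and its signal lay below the olfactory receptor yardstick. Kcnk12 differed by -0.16 ± 0.15, the acid-sensitive channel gene Kcnk3 (TASK-1) by -0.09 ± 0.06 and Kcnk10 (TREK-2) by -0.03 ± 0.02. Kcnk5, Kcnk7, Kcnk13, Kcnk15 and Kcnk16 lay between -0.07 and 0.09.

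**Figure D3:**
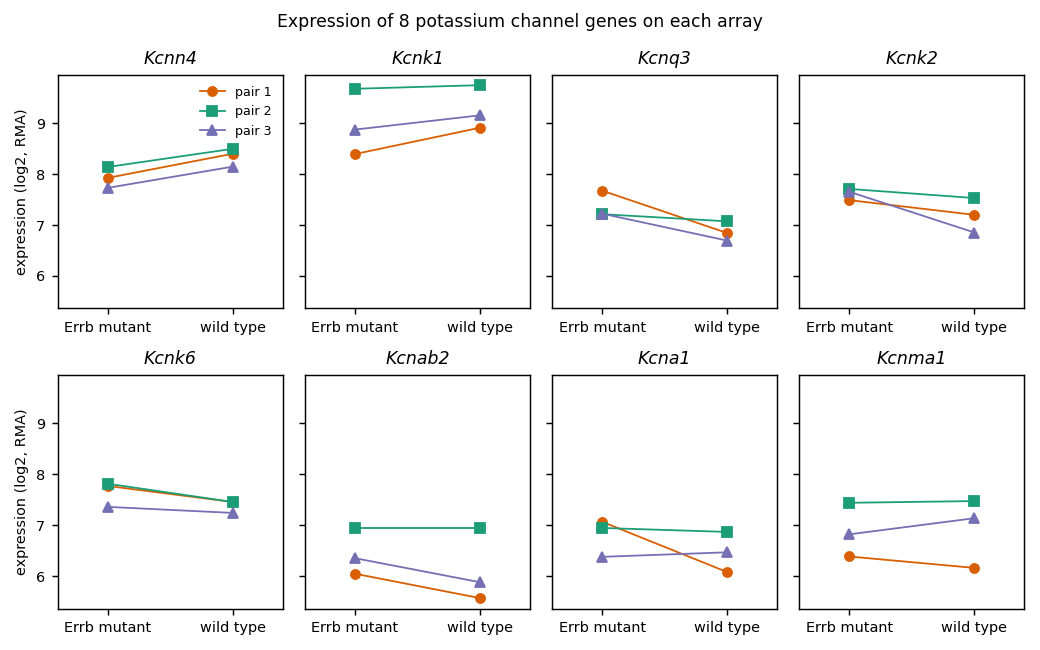
Expression (log2, RMA, y axis) of 8 genes in the Errb mutant (left) and wild type (right), with a line joining the arrays of each pair. Kcnn4 and Kcnk1 slope the same way in all 3 pairs, as do Kcnq3, Kcnk2 and Kcnk6 in the other direction. The slope of Kcna1 rests on pair 1 and the pairs of Kcnma1 disagree. The signal of Kcnab2 lies below the olfactory receptor yardstick on every array.

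The 30 voltage-gated alpha subunit genes had a median of 0.04. In all 3 pairs 3 were higher and 2 lower, against 12.9% and 9.03% of all genes. Kcnq3, a subunit of the M-current channel of neurons, had the highest mean of the 62. It read 7.68, 7.21 and 7.22 in mutant, against 6.84, 7.07 and 6.69 in wild type. Every mutant array lay above every wild-type array. The difference was 0.50 ± 0.35, a fold of 1.41, with an interval of 0.15 to 0.85 (adjusted p = 0.523), and the pairs gave 0.83, 0.14 and 0.53. A second, dimmer probe set of Kcnq3 differed by -0.03 and did not share this. Kcnq5, a relative that also carries M-current, differed by 0.04 ± 0.07.

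Kcna1, the Kv1.1 channel of spiral ganglion neurons and other axons, had nearly all of its difference in pair 1. It read 7.07, 6.95 and 6.38 in mutant, against 6.08, 6.87 and 6.47 in wild type. Only the 2 arrays of pair 1 lay above the olfactory receptor yardstick. The pair differences were 0.99, 0.08 and -0.09, with a mean of 0.33 ± 0.58 (adjusted p = 0.753). Without pair 1 the mean of Kcna1 was -0.0057. The other 3 probe sets of Kcna1 differed by 2.08, 1.68 and -0.04 in pair 1. Kcna2 (Kv1.2), its partner at axons, differed by 0.17, -0.03 and 0.23 in pairs 1 to 3, a mean of 0.12 ± 0.13. In pair 1 less expressed probe sets of Kcna2 were higher by 1.03, 0.79 and 0.08.

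The other alpha subunits differed less. Kcnh2, which encodes the ERG channel, was higher in all 3 pairs (0.09, 0.06 and 0.34; mean 0.16 ± 0.15, adjusted p = 0.745). Kcnh5, of the EAG family, was too (mean 0.06 ± 0.03), at a low mean signal of 3.18 in mutant and 3.12 in wild type. Kcna5 (Kv1.5) was lower in all 3 pairs at low signal, with 3.68, 4.72 and 3.64 in mutant and 3.96, 4.85 and 3.79 in wild type. Its difference was -0.18 ± 0.08 (adjusted p = 0.691). Kcng1, a silent subunit that forms channels only with others, was also lower in all 3 (-0.15 ± 0.14). Kcnc1 (Kv3.1), a channel of fast-firing auditory neurons, differed by -0.09 ± 0.10 and Kcnd2 (Kv4.2), which carries A-type current, by 0.06 ± 0.07. The other 20 of the 30 lay between -0.14 for Kcng2 and 0.18 for Kcnh8.

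Of the 7 auxiliary subunit genes none had the same sign in all 3 pairs, where 12.9% of all genes were higher and 9.03% lower. Kcnab2, the beta subunit that binds Kv1 channels, read 6.05, 6.95 and 6.36 in mutant, against 5.57, 6.95 and 5.88 in wild type. It was equal in pair 2 and higher by 0.48 and 0.47 in pairs 1 and 3, a mean of 0.32 ± 0.27 (adjusted p = 0.674). Its signal lay below the olfactory receptor yardstick on every array. A second probe set of Kcnab2 differed by -0.12. Kcnab1 differed by 0.16 ± 0.29, and Kcnab3 and the 4 Kcnip genes, whose proteins bind Kv4 channels, lay between -0.12 and -0.01. Kcnmb4os1 and Kcnmb4os2, genes named for transcripts from the opposite strand of Kcnmb4, differed by -0.18 ± 0.30 and 0.07 ± 0.06. More than 1 probe set was available for 36 of the 62 genes, and in 16 of the 36 all of a gene's probe sets had the same sign.

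Most neuron markers were higher in the mutant, by most in pair 1, where several of these genes were higher too. By limma 0 of the 14 markers passed. Of the 14 neuron markers 13 were higher in the mutant of pair 1, against 9 in pair 2 and 10 in pair 3. Their list medians were 0.97, 0.19 and 0.20, beside 0, 0 and 0.02 over all genes. In all 3 pairs 8 of them were higher and 0 lower, against 12.9% and 9.03% of all genes. The mean signal of the 14 markers per array was 7.21, 6.43 and 5.78 in mutant replicates 1 to 3, against 5.69, 6.21 and 5.61 in wild type. Nefl, a neurofilament gene of axons, read 9.25, 6.12 and 4.94 in mutant, against 4.63, 5.30 and 4.40 in wild type. Schwann cell and glia markers, 7 of 10 measured, had medians of 0.40, -0.06 and 0.04 in the same pairs. Among the 62 genes, Kcna1, Kcnq3, Kcnh8, Kcnc2 and Kcnab2 were higher by over 0.4 in pair 1, and Kcnk1 and Kcnn4 lower by over 0.4. The limit of 0.4 was passed upward by 2.39% of all genes in that pair and downward by 3.91%. In pair 2 none of the 62 passed it in either direction, where 1.31% of all genes passed it upward and 1.63% downward. In pair 3 Kcnk2, Kcnq3, Kcnab2, Kcna3 and Kcns1 were higher by over 0.4 and Kcnmb4os1, Kcnn4 and Kcnn3 lower, where 6.71% and 3.02% of all genes passed the limit upward and downward. The part of the neuron and glia markers, or of the RNA quality gap in pairs 1 and 3, in these differences was not tested. Of the genes past the limit, Kcnh8, Kcnc2, Kcnab2, Kcna3, Kcns1, Kcnmb4os1 and Kcnn3 lay below the olfactory receptor yardstick on every array. Without pair 1 the difference of Kcnq3 was 0.33 and that of Kcnk2 0.49, while Kcnn4 was at -0.39.

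**Figure D4:**
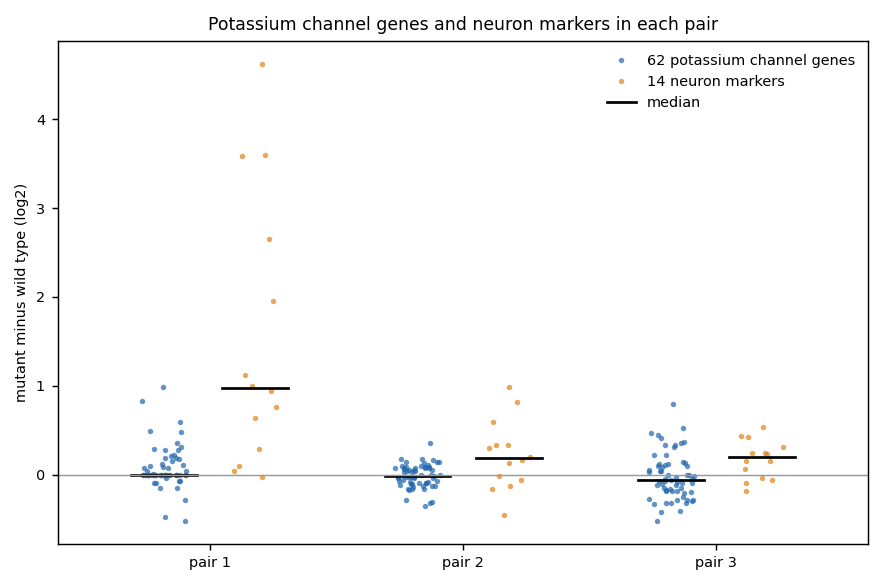
Mutant minus wild type (log2, y axis) in each pair for the 62 genes (blue) and the 14 neuron markers (orange), with a point for each gene and a bar at the median. The neuron markers spread up to 4.63 in pair 1 (Nefl), and the 62 genes stay between -0.52 and 0.99 in all 3 pairs.

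Partners of these channels outside the Kcn symbols were taken from a list of their own. Of 30 listed partner and related genes 23 were measured. By limma 0 of the 23 passed, and the median was 0.06. In all 3 pairs 6 were higher and 4 lower, against 12.9% and 9.03% of all genes. The lowest was Lrrc26, which encodes an auxiliary gamma subunit that lets the BK channel open at more negative voltages. It read 4.92, 6.31 and 5.86 in mutant, against 5.11, 7.39 and 7.12 in wild type. Lrrc26 was lower in all 3 pairs (-0.19, -1.09 and -1.26), a mean of -0.85 ± 0.57 (adjusted p = 0.469). The pore gene Kcnma1 differed by -0.04. The mutant values of Lrrc26 lay below the olfactory receptor yardstick of 6.08, 7.05 and 6.43 on the same arrays. Wild-type replicate 1 also lay below its own of 6.05, so the size of the difference is uncertain. Ank3, the ankyrin that anchors channels at axon initial segments, differed by -0.40 ± 0.16 (adjusted p = 0.374). At the other end were Dpp10, an auxiliary subunit of Kv4 channels (0.39 ± 0.30), Adam23 (0.32 ± 0.15) and Ank2 (0.31 ± 0.17), none of which passed.

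The inward rectifiers, set beside the 62 genes by the same choice of probe set, had 0 of 15 passing and a median of -0.05. In all 3 pairs 0 were higher and 2 lower, against 12.9% and 9.03% of all genes. Of the 5 Kcne genes 1 passed, Kcne1, and the others lay between -0.14 and 0.07.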

How the data were processed

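Per the submitters' processing notes, the authors made the values with RMA, with no version or settings named in the sources used here. The deposited values are log2 expression per probe set; that scale was read from their range, 2.33 to 14.6. They were used as deposited. Of 45101 probe sets 64 controls were left out, and of the 45037 tested 34945 had 1 gene symbol, 932 several and 9160 none; these last 2 kinds are unnamed. All 62 symbols matched a RefSeq gene table (GRCm38.p6) by gene identifier.

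A two-sided limma 3.58.1 fit (lmFit, eBayes; R 4.3.3) held genotype and replicate number, with Benjamini-Hochberg adjustment over all 45037 probe sets and a threshold of 0.05. The pairing rests on the labels' replicate numbers. Within pairs 1 to 3 the arrays' deviations from their genotype's mean had correlations of 0.879, 0.818 and 0.746. Between other numbers the correlations were -0.654 to 0.119. Deviations within a genotype cancel out, which by itself lowers the correlations between other numbers. These values cannot tell pools that were paired from arrays that were handled or normalized by pair. Array medians were also alike within pairs (6.08 and 6.07, 6.94 and 6.95, 6.38 and 6.42, mutant then wild type); whether arrays were normalized by pair is not stated. Nothing says that the pools came from separate litters, so the p-values cover only the spread among these arrays, which may be technical. The number of arrays limits the precision.

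Named were, among the genes with 1 sign in 3 pairs, the 10 largest differences each way, then the 5 smallest p each way, and a list of genes known in the ear. Other genes were named after their values were seen. The genes, lists and tests were chosen with earlier results of these data known. Alternatives were no replicate block, quantile normalization, median centring, a filter on low values, trend and robust eBayes, the mean of all probe sets of a gene, no cross-hybridising probe sets, and leaving out each pair. Motifs were searched on both strands.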

Additional observations from a re-analysis of the deposited data

How the results depend on the processing

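The count of 0 genes passing in either direction held under all 10 alternatives. Without the replicate block the count was 0 and the smallest adjusted p was 1, and under the other 6 that kept all pairs the smallest adjusted p of the 62 genes was 0.190 to 0.274; the block changed no other call of the 62. Kcnq1, named beside them, did not pass without the block (adjusted p = 1), and Kcne1 did (adjusted p = 0.00710). The counts of genes with 1 sign in all 3 pairs moved most. With quantile normalization 8 were higher and 13 lower, and with median centring 16 were lower, settings that turn exact ties within a pair into small differences. The mean of all probe sets of a gene gave 10 higher, and 0 above 0.5. The filter on level kept 20 of the 62, with 2 lower in all 3 pairs and a median of 0.0535. Leaving out 1 pair left 1 residual degree of freedom and asked for 1 sign in only 2 pairs. Then 11 to 12 genes were higher and 8 to 20 lower, 0 to 2 lay above 0.5, and the median ran from -0.0251 (without pair 1) to 0.0207. The sign of Kcna1 turned without pair 1 (-0.0057 to 0.53 over the 3 pairs left out in turn). Those of Kcnma1 (-0.18 to 0.0950), Kcnmb4 (-0.0361 to 0.16) and Kcnn2 (-0.14 to 0.0647) turned without pair 3. The cause was not tested. Signal over background is not given for these arrays, which limits the 43 genes of low signal most.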
